A study of Mus musculus with 8 samples.

Results

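The genes described are 9 transcription factors of the interferon regulatory factor (IRF) and signal transducer and activator of transcription (STAT) families: Irf1, Irf2, Irf3, Irf5, Irf7, Irf8, Irf9, Stat2 and Stat3. They were taken as named genes, and all 13 of their probes, found by accession among 41174 probes and 18883 named genes of the array, were used. IRF proteins bind DNA through an N-terminal domain that recognises GAAA repeats, the interferon-stimulated response element (ISRE). STAT proteins wait in the cytoplasm until Janus kinases, bound to cytokine receptors, phosphorylate them, and then many bind the gamma-activated sequence (GAS). Type I interferon acts mainly through ISGF3, a complex that contains STAT2 and IRF9, whereas STAT3 serves the interleukin-6 family of cytokines and is often active in mammary tumours.

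The samples were PyMT mammary tumour cells (tumours driven by the polyoma middle T oncogene) on the FVB background, and all 8 had been given 50 uM camptothecin (CPT), a topoisomerase I poison, for 36 h. The wild-type line WTA carried the lentiviral hairpin LKO1-shSnd1 against Snd1 (knockdown, 3 arrays) or the empty LKO1 vector (3 arrays), each after puromycin selection. The Mtdh-knockout line KO2 was given back Mtdh from LmPGK-mMtdh-ires2-GFP (wild-type rescue, 1 array) or Mtdh with the W391D change, which is deficient in Snd1 binding (LmPGK-mMtdhspm13-ires2-GFP, 1 array), and was sorted for GFP. The control of the knockdown was an empty vector and not another hairpin, the labels name 1 hairpin construct, and no untreated cells were analysed here. Each sample was labelled with Cy5 and hybridised with a Cy3-labelled reference RNA from 11 mouse cell lines. A level below is the log2 ratio of Cy5 over Cy3, so 0 means equal to the reference. It can be compared between samples for 1 probe, not between probes.

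Between 78.02% and 88.47% of non-control spots per array were well above background in Cy5, and all 13 probes of the 9 genes were so on all 8 arrays in both dyes. Snd1 itself lay between -3.44 and -3.23 in the knockdown and between -2.48 and -2.40 in the vector arrays (log2 fold change -0.90 ± 0.06 SE, limma adjusted p = 1.04e-05). Mtdh stood at 0.42 in the wild-type rescue and at -0.10 in the W391D rescue. The labels do not say whether the 3 replicates were separate cultures, so p-values reflect only the variation among the arrays at hand, possibly technical. Lower RNA per cell and fewer cells of a type cannot be told apart in such samples.

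The stretches upstream of the annotated starts are shown because several of these factors are known to be induced by interferon through the sites their own family binds. RefSeq windows (assembly GRCm38.p6, 250 bases before to 50 after a start) were held for all 9 genes, 12 windows in all. They were searched on both strands for the ISRE core (GAAA, any 2 bases, GAAA) and the GAS core TTCNNNGAA. The ISRE core was found for 2 of the 9 genes (Irf2 and Stat2), against 3.99% of 27025 genes with windows. The GAS core was found for 3 of the 9 (Irf1, Irf2 and Irf8), against 9.55%. The 250 bases before the start are given for these 4 genes and for Irf7, the gene with the greatest change, whose window holds neither core. Matches are in capitals.
Irf1, chr11:53769764-53770013, plus strand: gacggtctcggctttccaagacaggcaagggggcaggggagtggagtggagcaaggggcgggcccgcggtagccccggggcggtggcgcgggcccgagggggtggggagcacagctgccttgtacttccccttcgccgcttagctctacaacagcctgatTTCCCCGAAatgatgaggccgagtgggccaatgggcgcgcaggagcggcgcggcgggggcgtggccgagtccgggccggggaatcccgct
Irf2, chr8:46739495-46739744, plus strand: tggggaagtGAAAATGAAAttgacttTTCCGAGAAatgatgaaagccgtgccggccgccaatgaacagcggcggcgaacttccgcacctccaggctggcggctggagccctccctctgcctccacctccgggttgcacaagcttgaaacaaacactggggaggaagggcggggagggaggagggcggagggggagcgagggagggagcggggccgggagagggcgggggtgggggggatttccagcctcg
Irf8, chr8:120736108-120736357, plus strand: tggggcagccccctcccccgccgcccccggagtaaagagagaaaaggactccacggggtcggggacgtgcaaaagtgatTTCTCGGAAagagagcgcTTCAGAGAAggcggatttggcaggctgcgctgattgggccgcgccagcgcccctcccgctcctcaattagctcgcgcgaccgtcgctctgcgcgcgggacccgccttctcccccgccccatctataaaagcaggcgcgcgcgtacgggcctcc
Stat2, chr10:128270248-128270497, plus strand: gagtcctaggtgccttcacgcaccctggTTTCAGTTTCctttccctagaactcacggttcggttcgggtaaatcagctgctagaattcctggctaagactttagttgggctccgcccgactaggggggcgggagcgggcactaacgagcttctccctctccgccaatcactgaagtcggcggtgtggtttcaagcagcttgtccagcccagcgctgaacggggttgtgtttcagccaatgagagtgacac
Irf7, chr7:141266425-141266674, minus strand: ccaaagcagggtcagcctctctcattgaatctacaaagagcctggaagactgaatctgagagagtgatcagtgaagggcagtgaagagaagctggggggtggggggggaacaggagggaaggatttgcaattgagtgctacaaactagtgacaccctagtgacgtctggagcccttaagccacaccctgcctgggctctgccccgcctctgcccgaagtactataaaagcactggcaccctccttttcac

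In Irf1 the GAS core TTCCCCGAA spans bases -90 to -82 from the start. Irf2 holds GAAAATGAAA at -241 to -232 and TTCCGAGAA at -224 to -216. Irf8 holds a pair of GAS cores, TTCTCGGAA at -171 to -163 and TTCAGAGAA at -153 to -145. The Stat2 match, TTTCAGTTTC at -222 to -213, is the ISRE core read on the other strand. No match and no overlap between the 2 cores occurred in the windows of Irf3, Irf5, Irf7, Irf9 and Stat3. A match describes the letters only, since binding was not measured.

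Whether the factors themselves change when cells with less Snd1 meet camptothecin was examined by comparing knockdown with vector. Irf7, the factor that amplifies interferon production, was 5.44-fold lower in the knockdown. Irf9 was 2.06-fold and Stat2 1.93-fold lower, and Irf1 and Irf2 fell by smaller amounts. Irf3, Irf5 and Stat3 were slightly higher. By limma's test with Benjamini-Hochberg adjustment over 25673 features, 6 of the 9 genes were lower and 3 higher at an adjusted p under 0.05. Of all features, 44.8% were called, 21.1% lower and 23.7% higher, so being called is common in this comparison. Calls of at least 2-fold lower, which Irf7 and, by its brightest probe, Irf9 reached, made up 1.52% of features. The second Irf9 probe was 1.54-fold lower. All 9 genes had separate ranges in the 3 knockdown and 3 vector arrays, as had 53.2% of features (24.5% with the knockdown lower). The median fold change was -0.57 over the 9 genes and 0.02 over all features.

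**Figure D1:**
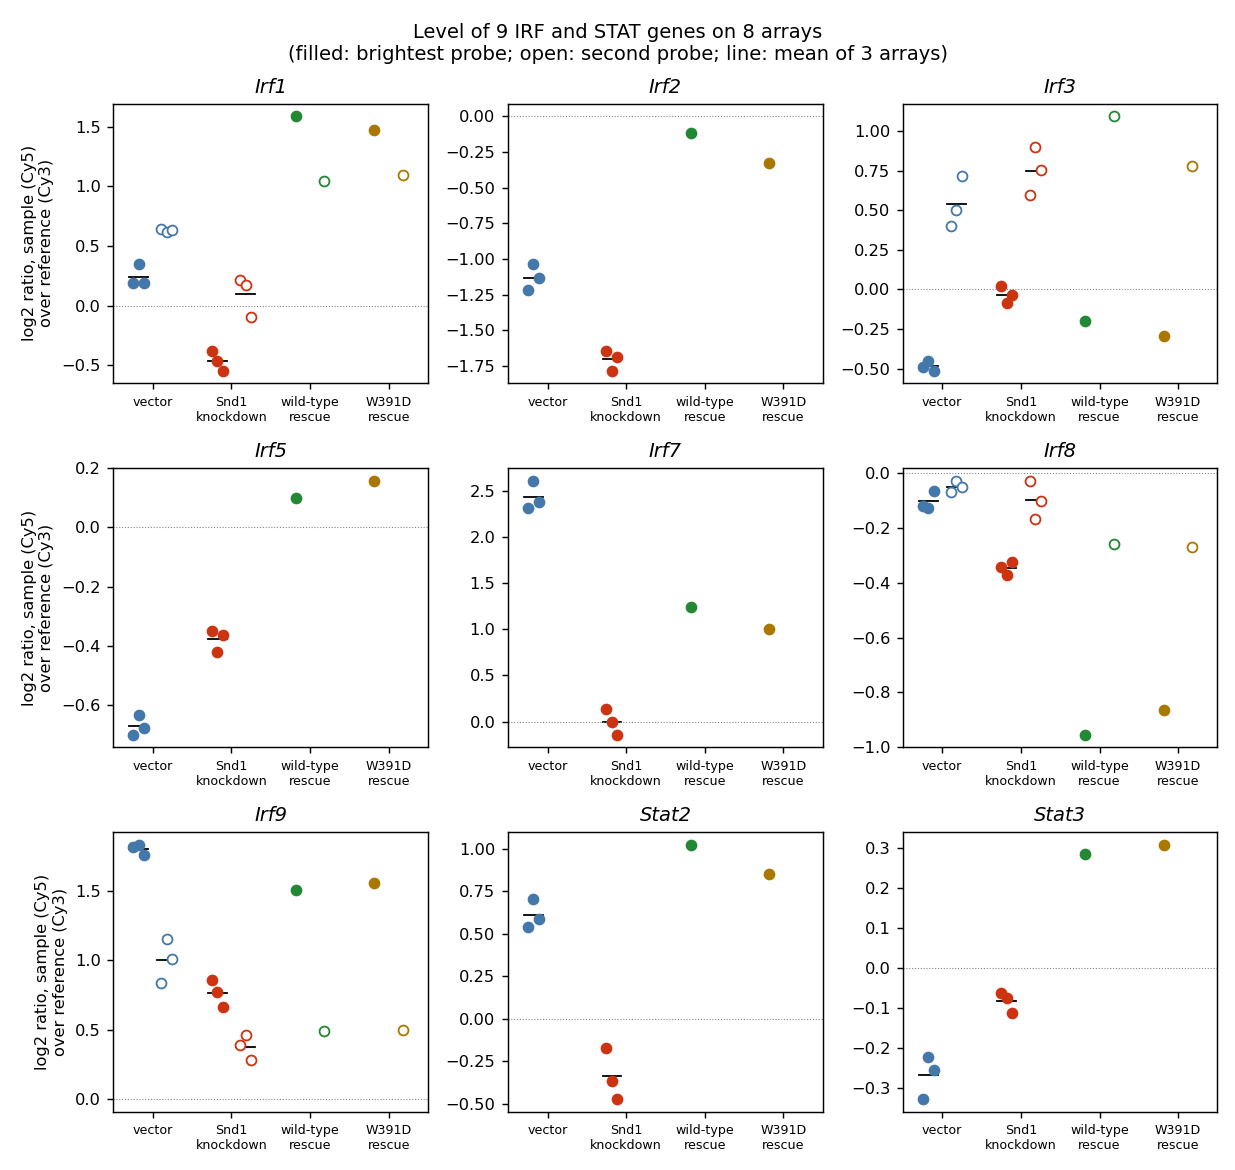
Log2 ratio of sample (Cy5) over reference (Cy3) for each gene, with 1 point per array in the vector, Snd1 knockdown, wild-type rescue and W391D rescue groups. Filled points are the brightest probe, open points the second probe, and black lines the mean of 3 arrays. Irf7 runs from 2.32 to 2.62 in the vector arrays and from -0.14 to 0.14 in the knockdown arrays.

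Irf7 is kept low in most resting cells and is induced by ISGF3, after which it drives most interferon-alpha genes. Its level was 2.32, 2.62 and 2.38 in the vector arrays and 0.14, -0.01 and -0.14 in the knockdown arrays. The knockdown arrays thus lay near the reference and the vector arrays far above it. The fold change was -2.44 ± 0.10 on the log2 scale (95% interval -2.66 to -2.22, adjusted p = 5.65e-07), and it was -2.18 within slide 1 and -2.57 within slide 2. Only 11 of the 25673 features had a lower fold change, which places Irf7 12th from the bottom.

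Irf9, the DNA-binding subunit of ISGF3, stood at 1.82, 1.83 and 1.76 in the vector arrays and at 0.86, 0.77 and 0.66 in the knockdown arrays. The groups were apart by more than the range of either. The fold change was -1.04 ± 0.06 (adjusted p = 3.7e-06). Its second probe gave 0.84, 1.15 and 1.01 against 0.39, 0.46 and 0.28, a fold change of -0.62 ± 0.08 (adjusted p = 0.000395 over 33563 probes, of which 22.1% were called lower and 23.6% higher). Both probes were therefore lower in the knockdown, by different amounts.

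Stat2, the STAT subunit that brings the activating domain to ISGF3, stood at 0.54, 0.71 and 0.59 in the vector arrays. In the knockdown arrays it stood at -0.17, -0.37 and -0.47, so the groups moved from above the reference to below it. The fold change was -0.95 ± 0.08 (adjusted p = 3.36e-05), and it was -0.71 within slide 1 and -1.07 within slide 2. Irf7, Irf9 and Stat2 were the 3 lowest fold changes of the 9 genes, at percentiles 0.0428, 1.28 and 1.75 of all features.

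Irf1 activates, and Irf2 competes at, overlapping target sites. Irf1 levels were 0.19, 0.35 and 0.19 in the vector arrays and -0.38, -0.46 and -0.55 in the knockdown arrays (fold change -0.70 ± 0.06, adjusted p = 4.65e-05). The second Irf1 probe read 0.64, 0.62 and 0.64 against 0.21, 0.17 and -0.10 (-0.54 ± 0.08, adjusted p = 0.000675 over all probes). Both Irf1 probes separated the groups. Irf2 levels were -1.22, -1.04 and -1.13 in the vector arrays and -1.65, -1.78 and -1.68 in the knockdown arrays, with a fold change of -0.57 ± 0.06 (adjusted p = 0.000115). The activator and its competitor thus had overlapping intervals, -0.85 to -0.56 for Irf1 and -0.72 to -0.43 for Irf2.

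Irf3 is made constantly and is switched on by phosphorylation downstream of nucleic acid sensors. It was higher in the knockdown: -0.49, -0.45 and -0.51 in the vector arrays against 0.02, -0.08 and -0.03 (fold change 0.45 ± 0.05, adjusted p = 8.93e-05). The second Irf3 probe, whose accession is that of a non-coding transcript of the gene, overlapped between groups and was not called (0.21 ± 0.10, 95% interval -0.02 to 0.43, adjusted p = 0.122 over all probes). The rise of Irf3 therefore rests on 1 of 2 probes.

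Irf5, which acts below Toll-like receptors, stood at -0.70, -0.63 and -0.68 in the vector arrays. It stood at -0.35, -0.42 and -0.36 in the knockdown arrays (0.29 ± 0.04, adjusted p = 0.000883). With the Cy5 channel alone Irf5 had a fold change of 0.21 and was not called (adjusted p = 0.206, the highest of 19 alternatives, whose lowest was 0.000524).

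Stat3 transmits signals of interleukin-6 and its relatives. Its probe lies in 10 spots on each array, with a spread between spots of 0.0214 to 0.0303 (SD). Levels were -0.33, -0.22 and -0.26 in the vector arrays and -0.06, -0.07 and -0.11 in the knockdown arrays. The groups did not overlap, and the fold change was 0.19 ± 0.05 (1.14-fold, adjusted p = 0.0113). The Stat3 call was lost with median centring (0.10, adjusted p = 0.312), with the Cy5 channel alone (0.17, adjusted p = 0.333) and at an adjusted p under 0.01. Across the 19 alternatives the adjusted p lay between 0.00699 and 0.333.

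Irf8 governs the development of myeloid and B cells. The brighter probe stood at -0.12, -0.13 and -0.07 in the vector arrays and at -0.345, -0.37 and -0.33 in the knockdown arrays (-0.24 ± 0.04, adjusted p = 0.00185). The second probe overlapped between groups (-0.05 ± 0.05, 95% interval -0.16 to 0.07, adjusted p = 0.483 over all probes). The Irf8 decrease is thus seen by 1 of 2 probes, and with median centring the brighter probe gave -0.40.

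**Figure D2:**
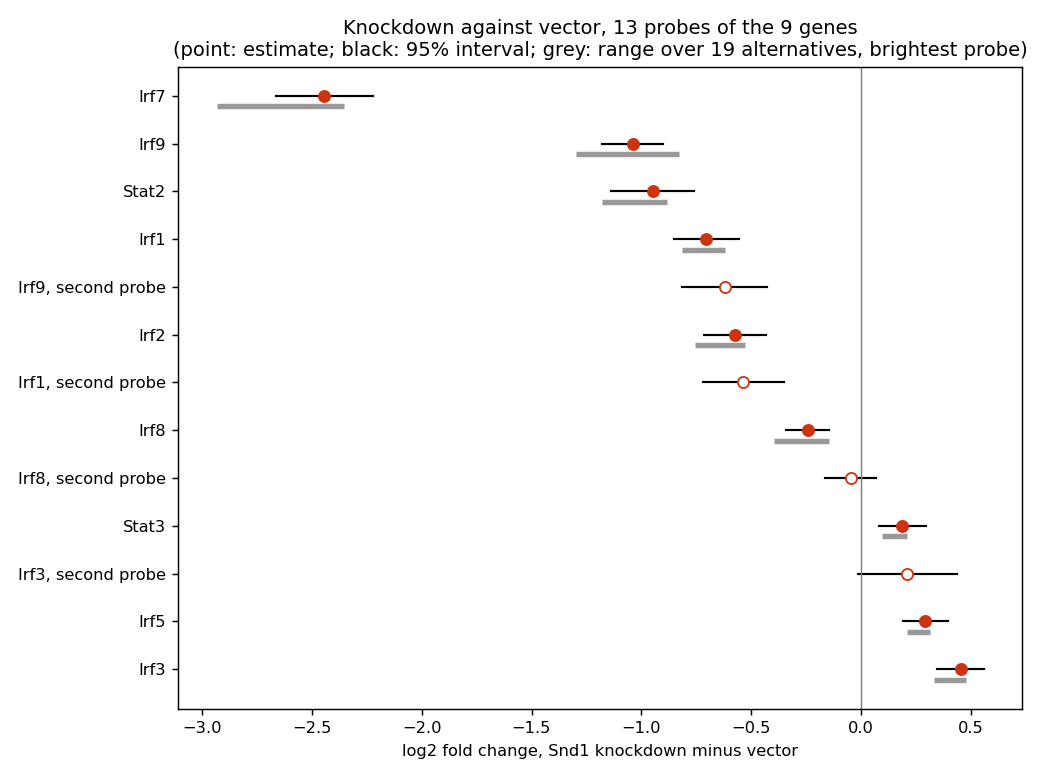
Log2 fold change, knockdown minus vector, for the 13 probes. Points are estimates (filled, brightest probe of a gene; open, second probe), black lines 95% intervals, and grey bars the range over 19 alternative ways of processing. Irf7 stands alone at -2.44, and the second probes of Irf3 and Irf8 have intervals that cross 0.

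**Figure D3:**
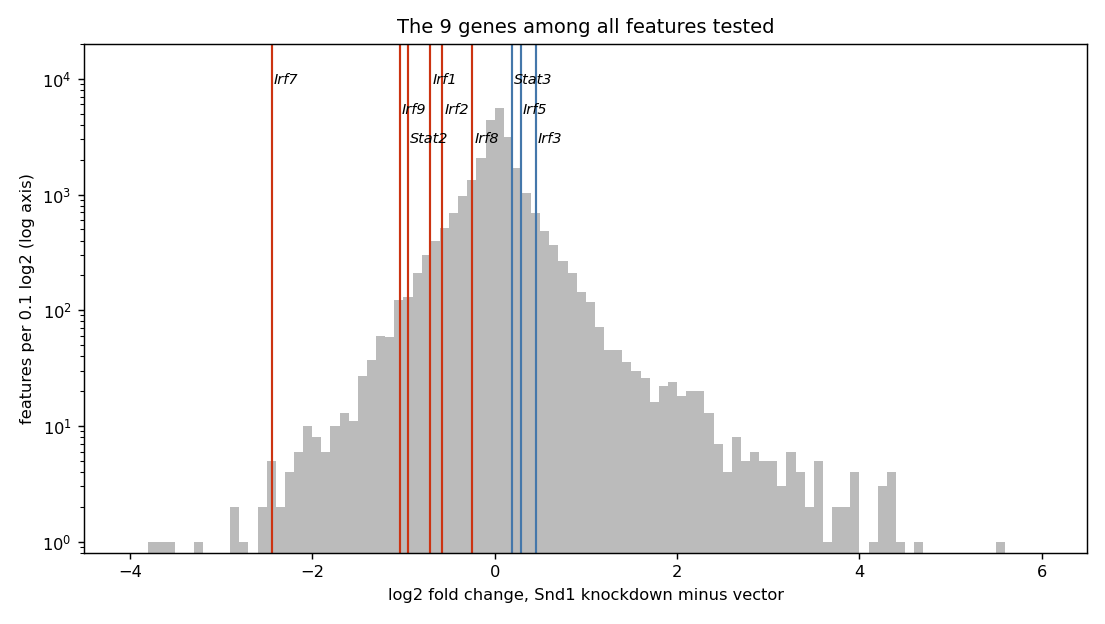
Number of features per 0.1 log2 units of fold change, knockdown minus vector, on a log axis, with a line at the fold change of each of the 9 genes. Red lines are genes lower and blue lines genes higher in the knockdown. Irf7 lies in the left tail, while Irf3, Irf5, Irf8 and Stat3 lie in the bulk of the features.

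Markers of other cell types were set beside these values because Irf5 and Irf8 are best known from leukocytes. Calls among the markers are read against the 21.1% of all features called lower and the 23.7% called higher. Of 10 leukocyte markers 9 were on the array and 8 were tested: Csf1r was called lower (-0.30) and Cd3e higher (0.14). With the Cy5 channel alone Csf1r was as low (-0.31) but not called (adjusted p = 0.0563), and other Csf1r probes gave -0.19 and 0.09. The Cd3e call was lost in several alternatives, among them those without vector replicate 3 (0.13) and without knockdown replicate 2 (0.14). The summed Cy5 signal of the list ran from 2890 to 3125 in the knockdown, from 2867 to 3325 in the vector and from 3610 to 3837 in the rescue arrays. The leukocyte common antigen Ptprc stood at -6.11 in the vector and -5.94 in the knockdown arrays, far below the reference, and Itgam was well above background on 3 of the 8 arrays. Of 8 epithelial markers 6 were lower and 1 higher in the knockdown. Their summed signal ran from 339967 to 360202 in the knockdown, from 459270 to 474930 in the vector and from 577575 to 613374 in the rescue arrays. Of 8 fibroblast markers 5 were higher, with sums of 20693 to 23386 in the knockdown, 8589 to 9484 in the vector and 7058 to 7322 in the rescue arrays. No epithelial or fibroblast marker fell below background on any array. The part of these shifts in the IRF and STAT values was not tested.

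The genes around the factors were taken from lists of ligands, receptors, sensors, inhibitors and targets, and calls in them are read against the 21.1% lower and 23.7% higher of all features. Among 11 tested ligands 4 were lower and 3 higher (median 0.00). Interferon-beta (Ifnb1) fell by 0.73 ± 0.06 on the log2 scale (adjusted p = 1.8e-05), and by 1.45 with the scanner software's ratios or the series' table. The interleukin-6 relative Ctf1 fell as well (-1.05 ± 0.04). With no background correction, and with the Cy5 channel alone, 2 ligands were lower. Interleukin-6 itself (Il6, 1.48 ± 0.07) and Il11 (1.08 ± 0.06) rose. Interferon-alpha genes Ifna2 and Ifna4 had log2 fold changes of 0.01 and 0.00 and were not called.

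Among 14 receptor chains and Janus kinases 6 were lower and 3 higher (median -0.12). The interferon-lambda receptor Ifnlr1 (-0.77 ± 0.06, adjusted p = 1.72e-05) and the interferon-gamma receptor chain Ifngr1 (-0.51 ± 0.04) fell, while the partner chain Ifngr2 (0.50 ± 0.04) and the kinase Jak3 (0.30 ± 0.05) rose. Other Jak3 probes gave 0.02 and 0.06, and Jak3 was not called by the mean of its probes (0.13, adjusted p = 0.0715). With the Cy5 channel alone 2 genes of this list were lower and 0 higher; Ifngr2 was then not called at a nearly equal fold change (0.49, adjusted p = 0.194), and without vector replicate 3 the number lower was 3.

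Of 18 tested sensors and adaptors that activate IRF3, IRF5 and IRF7, 11 were lower and 4 higher (median -0.23). The nucleic acid sensor Zbp1 (-2.11 ± 0.08, adjusted p = 3.65e-07), the helicase Dhx58 (-1.73 ± 0.10), the RNA receptor Tlr3 (-1.66 ± 0.09) and Sting1, the adaptor of cytosolic DNA sensing (-1.04 ± 0.04), had the smallest p-values. With the Cy5 channel alone the changes of Zbp1 (-3.02), Tlr3 (-2.71) and Dhx58 (-2.33) were larger. Median centring left 1 gene higher and the Cy5 channel alone 2. Of 18 inhibitors 8 were lower and 4 higher (median -0.06). Usp18, which removes ISG15 from proteins and blocks the interferon receptor (-1.50 ± 0.06, adjusted p = 5.37e-07), and the ubiquitin ligase Trim21 (-1.25 ± 0.06) fell. The cytokine signalling suppressors Socs1 (0.89 ± 0.05) and Cish (0.91 ± 0.06) rose.

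Of 19 tested targets of ISGF3, 19 were lower in the knockdown and 0 higher by limma, also at an unadjusted p under 0.05 (median -0.92). Bst2, which tethers virions (-2.47 ± 0.07, adjusted p = 1.29e-07), Oasl2 (-2.38 ± 0.07), Parp14 (-2.20 ± 0.07) and Ifi44 (-2.81 ± 0.09) had the smallest p-values, and other Parp14 probes gave -0.53 and -0.36. These counts are by the brightest probe of each gene. Other probes of Rsad2 (-0.76 by its brightest) gave 0.20 and 0.50, and one of Trim25 (-0.57 by its brightest) gave 0.25. By the mean of a gene's probes 18 of the 19 were called lower. Of 19 targets of IRF1 and of gamma-activated sites 12 were lower and 0 higher, or 12 lower and 1 higher at an unadjusted p under 0.05 (median -0.64). They included the GTPases Gbp3 (-2.07 ± 0.06, adjusted p = 1.07e-07) and Igtp (-2.52 ± 0.08), the immunoproteasome subunit Psmb10 (-1.67 ± 0.07), and Tapbp, which helps load MHC class I (-0.86 ± 0.05, and -0.39 by another probe). Under median centring, and with the Cy5 channel alone, 1 gene of this list was called higher.

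The STAT3 targets moved both ways, with 8 of 18 tested genes higher and 6 lower (median 0.13). The metalloproteinase inhibitor Timp1 (3.94 ± 0.06, adjusted p = 1.19e-08), the angiogenic factor Vegfa (1.48 ± 0.05; 0.44 to 1.04 by other probes) and the immediate early factor Fos (0.96 ± 0.04) rose. Survivin (Birc5), which also serves in mitosis, fell (-1.51 ± 0.04). Socs3, the feedback inhibitor of STAT3, was not called (0.11 ± 0.06, adjusted p = 0.146). Among other STAT genes, which serve cytokine and growth hormone receptors, the lower ones included Stat5b (-0.99 ± 0.07, adjusted p = 8.5e-06), Stat6 (-0.21 ± 0.05) and Stat5a (-0.17 ± 0.05). The Stat5a call was lost without knockdown replicate 2 (-0.15), vector replicate 2 (-0.14) or vector replicate 3 (-0.18). A second Stat5b probe gave 0.11.

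**Figure D4:**
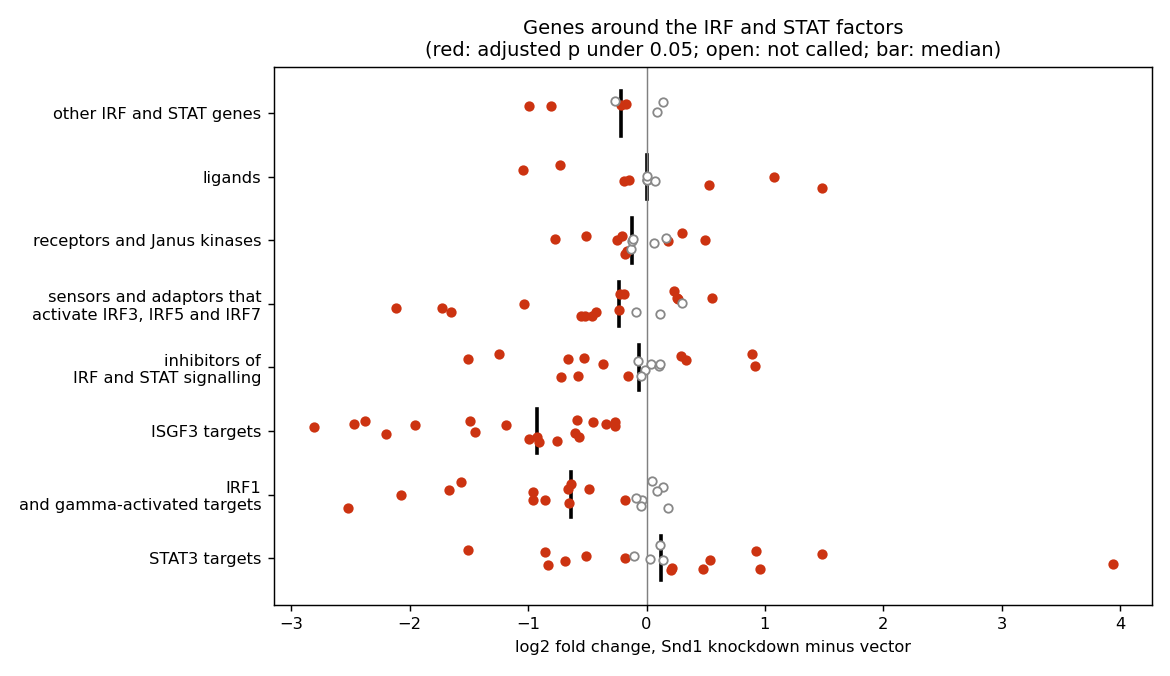
Log2 fold change, knockdown minus vector, of each tested gene in 8 lists of genes around the IRF and STAT factors. Red points are called at an adjusted p under 0.05, open points are not, and black bars are medians. The 19 ISGF3 targets all lie left of 0, whereas the 18 STAT3 targets spread from -1.51 to 3.94.

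What changes when Mtdh cannot bind Snd1 was addressed by the rescue arrays, which have no replicates, so no test was possible. Each of these arrays lay on a slide of its own, so slide and mutation cannot be told apart, nor can slide and line against the arrays of the WTA line. Mtdh RNA also differed (0.42 in the wild-type and -0.10 in the W391D rescue), so its level and the mutation cannot be told apart either. None of the 9 genes differed by 1.5-fold between W391D and wild-type rescue, a difference that 0.167% of 27019 features reached. Irf7 read 1.24 in the wild-type and 1.00 in the W391D rescue (-0.24), Irf2 -0.12 and -0.33 (-0.21), and Stat2 1.02 and 0.85 (-0.17). The difference was -0.12 for Irf1 (1.59 and 1.47) and -0.09 for Irf3 (-0.20 and -0.29). Irf9 (1.51 and 1.56), Irf5 (0.10 and 0.16), Irf8 (-0.95 and -0.86) and Stat3 (0.29 and 0.31) were 0.02 to 0.09 higher with W391D. The 5th and 95th percentiles of all features were -0.22 and 0.20, so by the brightest probes Irf7 alone of the 9 lay outside them. The second probes gave -0.31 for Irf3, also outside, 0.05 for Irf1, -0.01 for Irf8 and 0.01 for Irf9. With the Cy5 channel alone the differences of the brightest probes ran from -0.54 for Irf2 to 0.24 for Irf8. Of the 9, 8 were then negative, Irf5, Irf9 and Stat3 among them. With median centring 7 were negative, Irf9 (-0.03) and Stat3 (-0.08) among them, so the sign of these small differences depended on the scaling. ISGF3 targets had a median difference of -0.17 and targets of IRF1 one of -0.19, with none of either past 1.5-fold.

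**Figure D5:**
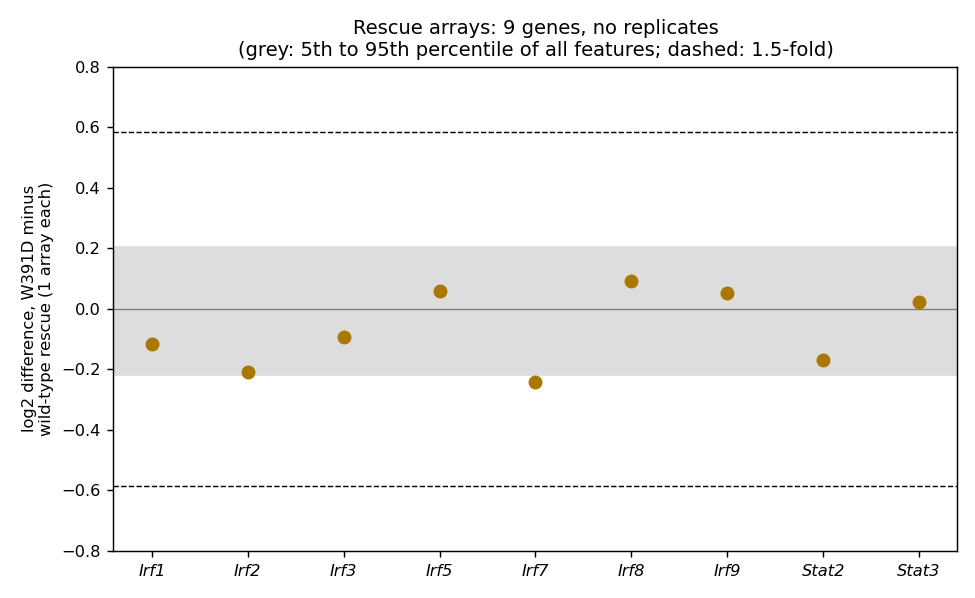
Log2 difference, W391D minus wild-type rescue, for the brightest probe of each of the 9 genes, with 1 array per group and no error. The grey band spans the 5th to 95th percentile of all features and dashed lines mark 1.5-fold. All points lie between -0.24 and 0.09.

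The order of levels over the 4 groups differed between the genes. Both rescue arrays lay above all vector arrays for 6 genes and below all of them for 3, shares that were 34.4% and 28% over all features. Both rescue arrays lay above all knockdown arrays for 7 genes and below them for 2, against 33% and 33.5% of features. Rescue and first-experiment arrays come from different lines, so line and manipulation cannot be told apart. Irf1 was highest in the rescue arrays (1.47 and 1.59), then in the vector and lowest in the knockdown. Irf2 and Stat2 had the same order. Irf7 and Irf9 were highest in the vector, intermediate in the rescue arrays and lowest in the knockdown. Irf5 and Stat3 were highest in the rescue arrays and lowest in the vector. Irf3 was highest in the knockdown, with the rescue arrays between, and Irf8 was highest in the vector and lowest in the rescue arrays. By the second Irf3 probe the wild-type rescue was highest (1.09), and the W391D rescue (0.78) lay within the range of the knockdown arrays (0.60 to 0.90). By the brightest probes, neighbouring groups did not overlap, but the 2 rescue values, being single arrays 0.02 to 0.24 apart, cannot be ordered beyond a spread. Separate ranges are common here, since 53.2% of all features had them between knockdown and vector. The share of features apart across all 4 groups was not computed.

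The genes with the most similar profiles over the 8 arrays were found as those with the smallest root mean square distance after centring, among 17212 others. Irf9 was closest to Sting1 (0.0436 log2 units), Cdc25b (0.0484) and Pkp2 (0.0572). Stat2 was closest to Ly6e (0.0674), to Snd1 itself (0.0765) and to Trpv4 (0.0817). Irf7 had no profile as near, with Pdgfrl at 0.197, the luminal factor Elf5 at 0.212 and Mgp at 0.221. Irf1 lay nearest Capn5, Tbcd and Lpcat2 (0.0799 to 0.0935) and Irf2 nearest Ptprk, Mllt3 and Vps54 (0.0462 to 0.0645). Irf3 was nearest to Mcl1, Gramd3 and Mcfd2 (0.0327 to 0.0348), Irf5 to Picalm, Samd10 and Zfp512 (0.0408 to 0.0451), Irf8 to Pdf, Snapc5 and Emp3 (0.041 to 0.0455) and Stat3 to Prdx6, Msrb3 and Ranbp6 (0.0234 to 0.0454). These distances describe 8 arrays from 2 lines that share 1 reference, and genes with small ranges have small distances.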

How the data were processed

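RNA from 8 samples was measured on 2-colour Agilent mouse arrays, sample in Cy5 and reference in Cy3, per the labels' protocols, with no dye swap. The deposited intensities are median pixel values of spots and local background, unnormalized, from Agilent Feature Extraction 11.0.1.1, per the file headers (array design on mm9); the submitters' processing notes name 9.5.3.1. The deposited log10 ratios are background-subtracted and dye-normalized by that software, per the file headers. The series' deposited log2 table correlated with those ratios at 0.988 to 1.00 for each array and is not centred (column medians 0.026 to 0.146). The deposited flags are used as set.

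Intensities were background-corrected by normexp with an offset of 50 (limma 3.58.1, R 4.3.3) and loess-normalized within arrays. Control spots (1639) and outlier spots (77 to 142 per array) were left out, and no spot was saturated. Spots of a probe were averaged. Accessions were matched to RefSeq symbols, naming 27668 of 41174 probes, and the brightest probe stood for a gene among 32053 features. A feature was fitted with lmFit and eBayes if at least 3 of 6 arrays had its Cy5 well above background, and called at a Benjamini-Hochberg adjusted p under 0.05. Second probes come from the same fit over 33563 probes. The fit was tested on simulated data with independent noise for each array, which do not cover variation shared by arrays of a slide.

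The 2 slides of the first experiment each held both groups. Deviations of same-numbered knockdown and vector arrays correlated at 0.597, 0.325 and 0.338. Correlations between differently numbered arrays were not computed. Same-numbered arrays also shared a slide, so pairing and slide cannot be told apart from these values. The main fit treated the arrays as unpaired. The members and lists were chosen with earlier results of these data known. Named genes were the 9 members, up to 4 called genes with the smallest p of each list, the 3 nearest profiles of each member, and Snd1 and Mtdh. Further list genes are named for context, and a gene picked by this rule is not reported here.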

Additional observations from a re-analysis of the deposited data

How the results depend on the processing

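Settings varied were the background correction, the source of the ratios (scanner software or series table), centring by the median, use of the Cy5 channel alone, the dim-probe filter, averaging over the probes of a gene, blocks for replicate and slide, slide 2 alone, the eBayes variant, the threshold, and omission of single arrays. Over 19 alternatives to the knockdown fit no member's fold change changed sign. The dim-probe filter, the blocks, the eBayes variant and the threshold could not alter a member's fold change, only its call. The series' table gave nearly the same fold changes as the scanner software's ratios. Irf1, Irf2, Irf3, Irf7, Irf8, Irf9 and Stat2 were called in all 19 alternatives, the second probes of Irf3 and Irf8 aside. Members called lower numbered 6 in each. Members called higher fell to 1, Irf3, with the Cy5 channel alone. With a block for the replicate number, 12904 features were called against 11497 and all 9 members kept their call. Single arrays left out gave 9962 to 11349 features. In the rescue arrays the number of members past the fold was 0 under all 10 alternatives, while features past 1.5-fold rose from 0.167% to 4.16% with the scanner software's ratios, 4.18% with the series' table and 3.95% with the Cy5 channel alone. Of the counts over gene lists, 35 of 418 moved by over 1.5 times. The number of arrays limits the precision, and the rescue values have no error.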
